A study of Mus musculus with 2 samples.

Results

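The islet hormone genes Ins1, Ins2, Gcg, Sst, Ppy, Pyy, Iapp and Chga were followed through 2 single-cell RNA-seq libraries of orthotopic mouse pancreatic tumors, 1 per genotype. These 8 genes, of 32285 in the files, were picked by symbol after their raw counts in these libraries had been seen, so their levels are a description and no test was made on them. Tumors arose from KPC cells, a murine line of pancreatic carcinoma, injected with Matrigel into the pancreas of male mice that keep their own islets and acini. The flox library (genotype FLOX) came from mice whose Slc16a1, the gene of the lactate transporter MCT1, is flanked by loxP sites. The library labelled MCT1-KO came from such mice carrying Col1a2-CreERT2, a tamoxifen-inducible Cre driven in fibroblast-like cells such as pancreatic stellate cells (PSCs). Cre is therefore not directed at endocrine cells. The methods name C57BL/6 mice and an age for animals bought for the study but tie neither to a library, the number of animals behind a library was not given in the sources used here, and the labels do not say whether flox mice received tamoxifen or corn oil.

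The pancreatic islet is a small endocrine organ inside the exocrine pancreas. Its beta cells release insulin together with amylin, its alpha cells glucagon, its delta cells somatostatin and its PP cells pancreatic polypeptide. Each hormone is made as a precursor that convertases cut inside dense-core granules, whose matrix is formed by chromogranins and secretogranins. Because a hormone can make up a large part of the mRNA of such a cell, a few endocrine cells can supply most hormone reads of a tissue.

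Barcodes with at least 500 unique molecules (UMIs), 200 to 5000 detected genes and at most 8% mitochondrial UMIs were kept as cells. They numbered 8739 in the flox library and 11689 in the library labelled MCT1-KO, with 61149689 and 81494894 UMIs and a median of 4069 and 3706 per cell. Barcodes with 10 to 100 UMIs, called empty here and taken to carry RNA that was free in the suspension, numbered 1179143 and 1160995. Of the kept barcodes, 59 occurred in both libraries. Slc16a1 gave 58 UMIs in PSC-like cells of the flox library and 113 in those of the other, or 25.7 and 34.9 CPM (counts scaled to a total of 1000000 UMIs), a ratio of 1.36 (95% counting interval 0.979 to 1.89). A lower Slc16a1 count was thus not seen there. The flanked exons are not stated in the text or labels, and the paper's figure of the construct was not read. Since 3′ reads may lie outside these exons, this count may not check the label. The summed level of 10 acinar genes was 51.4 times higher in the empty barcodes of the library labelled MCT1-KO than in those of the flox library (50.4 to 52.4), and 7.03 times higher in its kept cells. The part of this difference in the hormone values was not tested. With 1 library per genotype no comparison has a replicate, so every interval here covers counting error only.

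In mouse build GRCm38 with GENCODE vM21, Ins1 (ENSMUSG00000035804) lies at chr19:52264297-52265476 and Ins2 (ENSMUSG00000000215) at chr7:142678656-142743381. Gcg (ENSMUSG00000000394) lies at chr2:62474530-62483650, Sst (ENSMUSG00000004366) at chr16:23889573-23890958, Iapp (ENSMUSG00000041681) at chr6:142298423-142303961 and Chga (ENSMUSG00000021194) at chr12:102554969-102565028. Ppy (ENSMUSG00000017316, chr11:102099930-102101319) and Pyy (ENSMUSG00000017311, chr11:102106676-102107832) are neighbours on the same strand, 5357 bases apart. Ins1 and Ins2 are close paralogs, as are Ppy and Pyy, and it is not known how reads that fit both members of a pair were counted.

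The sequences just before the start sites are shown because some members, such as Ins1 with Iapp and Gcg with Ppy, had UMIs in the same hormone-rich cells, while others such as Sst and Gcg did not. Gcg and Ppy met only in flox cell A and in cell B of the library labelled MCT1-KO, both possible doublets. Cell C of that library had 950 Gcg and 0 Ppy UMIs, and its cell D had 99 Ppy and 0 Gcg. The sequences are 150 bases long, written 5′ to 3′ on the strand of the gene. They come from RefSeq promoters of GRCm38.p6, which matched 7 of the 8 members (not Ins2). Capitals mark a CRE (TGACGTCA), a TATA box (TATAAA), the E-box CATCTG or the homeodomain core TAATTA, searched on both strands. These are windows of Ins1 (chr19:52264147-52264296), Iapp (chr6:142298275-142298424), Gcg (chr2:62483654-62483803) and Ppy (chr11:102101320-102101469), and for Sst the 30 bases around its CRE (chr16:23890875-23890904).
Ins1: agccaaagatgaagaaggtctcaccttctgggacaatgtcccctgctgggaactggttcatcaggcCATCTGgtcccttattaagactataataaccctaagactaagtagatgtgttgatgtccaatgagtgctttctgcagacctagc
Iapp: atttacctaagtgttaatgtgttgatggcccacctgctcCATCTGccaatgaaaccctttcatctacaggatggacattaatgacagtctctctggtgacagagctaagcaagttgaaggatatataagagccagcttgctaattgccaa
Gcg: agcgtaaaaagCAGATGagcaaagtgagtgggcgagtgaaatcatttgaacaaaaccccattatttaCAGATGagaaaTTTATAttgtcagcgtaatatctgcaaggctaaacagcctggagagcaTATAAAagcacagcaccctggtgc
Ppy: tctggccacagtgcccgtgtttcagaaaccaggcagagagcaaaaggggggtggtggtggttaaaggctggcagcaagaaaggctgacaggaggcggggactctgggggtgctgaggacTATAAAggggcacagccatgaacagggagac
Sst: cgcctccttggcTGACGTCAgagagagagt
The E-box began 84 bases before the start of Ins1, 111 before that of Iapp, and 139 and 83 before that of Gcg, on the reverse strand in Gcg. It was found in 8.81% of 32851 RefSeq windows of the same length. Sst held the CRE 48 bases before its RefSeq start, a word present in 1.36% of windows. That start lies inside the gene as GENCODE places it, so the printed stretch does too. TATAAA began 24 bases before the start of Gcg and 31 before that of Ppy, with a reverse match at 72 in Gcg, and was present in 7.57% of windows. TAATTA, present in 2.73%, was in no member's window, and none of the 4 words was found in the windows of Pyy and Chga. A match is a description of letters and not a site.

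Most hormone UMIs of the kept cells lay in 9 of these 20428 cells. A cell with at least 10 UMIs of any of the 8 genes was called hormone-rich, and there were 2 such cells in the flox library and 7 in the library labelled MCT1-KO. The 2 flox cells made up 0.0229% of kept cells (exact binomial interval 0.00277 to 0.0826%) and held 94.0% of the 1214 hormone UMIs. The 7 cells of the other library made up 0.0599% (0.0241 to 0.123%) and held 95.7% of 13478. These are shares of the kept cells, since all barcodes together had 1716 and 14553 hormone UMIs. For single genes the share differed, and flox Iapp and Chga had only 43.4% and 16.7% of their kept-cell UMIs in the hormone-rich cells. The cells were chosen by these counts, so the numbers are a description of the 2 libraries. Single hormone-rich cells held 303 and 838 hormone UMIs in the flox library, and between 10 and 8027 where the label was MCT1-KO. No flox cell held 5 to 9 UMIs of a member. In the other library 8 cells did, the highest just outside the threshold with 9 UMIs of Ins2 and the lowest inside it with 10 of Iapp.

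**Figure D1:**
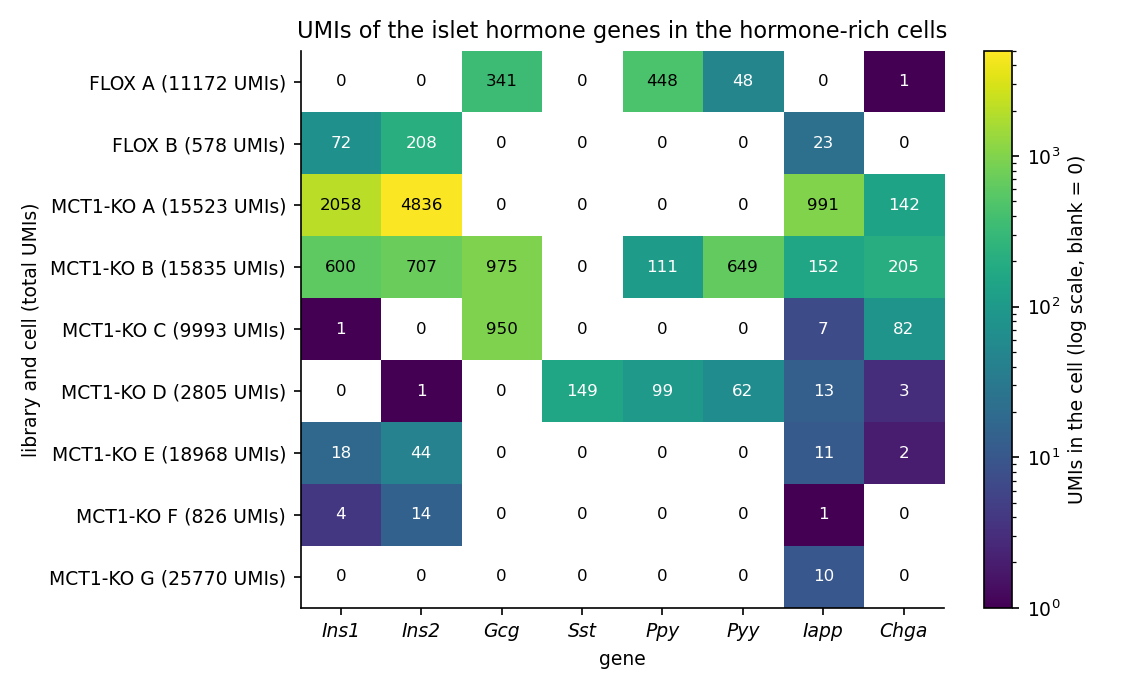
UMIs of each islet hormone gene (columns) in each of the 9 hormone-rich cells (rows, with total UMIs), on a log color scale where blank squares are 0. At 10 or more UMIs, Ins2 and Iapp share 4 cells, while cells D and G of the library labelled MCT1-KO reach that count for Iapp but not for Ins2. Cell D also reaches it for Sst, Ppy and Pyy. Ppy and Pyy share 3 cells, and cell B of the library labelled MCT1-KO holds UMIs of 7 of the 8 genes.

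The insulin genes and Iapp, the products of beta cells, were followed first. Flox cell B had only 578 UMIs and 228 genes, of which 72 were Ins1, 208 Ins2 and 23 Iapp, so that hormones made up 52.4% of it (48.3 to 56.6%). Cell A of the library labelled MCT1-KO had 15523 UMIs with 2058 of Ins1, 4836 of Ins2, 991 of Iapp and 142 of Chga, and hormones made up 51.7% of it (50.9 to 52.5%). Both cells were thus given to hormone mRNA to about the same degree, although one held far more UMIs than the other. Cell E of that library, with 18968 UMIs, had 18 of Ins1, 44 of Ins2 and 11 of Iapp, and hormones made up 0.395% of it. It lay in a cluster led by Pde10a and Fmo2, apart from cell A, and no cluster was named endocrine. Cell F, with 826 UMIs, had 4 of Ins1, 14 of Ins2 and 1 of Iapp. Among the 10 fixed endocrine markers cell E had UMIs of only Scg5. Cell F and flox cell B each had 1 UMI of Scg2 and none of the others, and at their 826 and 578 UMIs low levels of these genes were not detectable.

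Glucagon, which raises blood glucose, was nearly absent outside 3 cells. Cell C of the library labelled MCT1-KO was of a single hormone, with 950 Gcg UMIs beside 1 of Ins1, 7 of Iapp and 82 of Chga among 9993. It also had 430 UMIs of Ttr, the transthyretin gene that alpha cells carry at a high level. Cell B of the same library held 975 Gcg UMIs together with 600 of Ins1, 707 of Ins2, 152 of Iapp, 111 of Ppy, 649 of Pyy and 205 of Chga among 15835. Hormones of beta, alpha and PP cells were therefore read under 1 barcode, and the Ins2 to Ins1 ratio there was 1.18 against 2.35 in cell A. Cells A, B and C of this library and flox cell A each had at least 50% of the markers of another class beside the endocrine ones. In cells A to C these were ductal markers such as Krt8 and Epcam, which endocrine cells carry as well. Whether these barcodes held 1 cell or several was not tested.

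Flox cell A carried 341 Gcg UMIs, 448 of Ppy and 48 of Pyy, with 1 of Chga and none of insulin, among 11172. This cell fell in a PSC-like cluster, although it had UMIs of 2 of 8 PSC markers (4 UMIs in all). It held 2 UMIs of Sox10 and 1 of S100b, which are Schwann cell markers, and 7 of the 10 endocrine markers with 31 UMIs. Among the genes that led it outside the members were Apod with 44 UMIs, Resp18 with 16 and Pcsk1n with 12. Genes of a glial cell and of an endocrine cell were thus read under the same barcode. All 341 Gcg and 48 Pyy UMIs and 448 of the 450 Ppy UMIs of the 238 PSC-like flox cells came from it. Without it the PSC-like cells held 0 Gcg, 2 Ppy and 0 Pyy UMIs in the flox library, against 0, 2 and 0 in the 449 of the other.

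Somatostatin, which inhibits the release of the other islet hormones, was read almost wholly in a single cell. Cell D of the library labelled MCT1-KO had 149 Sst UMIs beside 99 of Ppy, 62 of Pyy, 13 of Iapp and 3 of Chga among 2805, and 6 of Isl1, a transcription factor of endocrine cells. No kept flox cell had an Sst UMI, which allows up to 0.0491 CPM by a floor of 3 UMIs (exact Poisson limit 0.0603), while the other library had 151 UMIs or 1.85 CPM (1.57 to 2.17). Set against that floor, taken over the flox cells, the ratio was at least 37.8-fold, and the exact counting interval of the ratio, which is wider, starts at 30.3. All but 2 of these UMIs were those of cell D.

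Ppy and its relative Pyy, which makes peptide YY, went together. Each of the 3 cells with at least 10 Ppy UMIs also had at least 10 of Pyy, at a Ppy count of 448, 111 and 99 beside a Pyy count of 48, 649 and 62. The order of the pair was opposite in cell B of the library labelled MCT1-KO and in flox cell A. Chga, chromogranin A, had 205, 142 and 82 UMIs in cells B, A and C of the library labelled MCT1-KO and at most 3 in any other kept cell of either library.

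Cell G of the library labelled MCT1-KO met the threshold through Iapp alone, with 10 UMIs among 25770 and none of insulin or of any endocrine marker. It lay among ductal-like cells and was led by Cxcl10, Cxcl9 and Gbp2, genes that interferon induces. It was not the only such cell. In kept cells with at least 3 Iapp UMIs, 4 of 10 in the library labelled MCT1-KO and 1 of 2 in the flox library had no insulin UMI, and the total of such cells ran from 10997 to 25770 UMIs in the first and was 20410 in the second. Among barcodes with over 5000 genes, which had been set aside, 3 of 3 and 2 of 2 with at least 3 Iapp UMIs had none of insulin. Amylin UMIs thus occurred in deep cells without the insulin found beside them in flox cell B and in cells A and B of the other library.

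Cells A, B, C and D of the library labelled MCT1-KO fell in 1 small cluster of 43 flox and 67 other cells, led by Tff1, Gkn1 and Gkn2, genes of gastric mucus-secreting cells. The endocrine identity was therefore checked cell by cell. Of the 10 fixed endocrine markers that are not members, cells A to D had 5, 9, 7 and 8, and cells E, F and G had 1, 1 and 0. Flox cells A and B had 7 and 1. No kept cell had Neurod1, a defining endocrine transcription factor with 0 UMIs in both libraries.

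The number of cells that held most UMIs of a hormone was 1 or 2 for each gene in the library labelled MCT1-KO. In the flox library it was 1 for Ins1, Ins2, Gcg, Ppy and Pyy, 3 for Iapp and 3 for Chga, which had 6 UMIs in 6 cells. At 90% of the UMIs it stayed at 1 for the first 5 genes in flox cells and reached 3 at most in the other library, while Iapp needed 22 flox cells. The top cell alone held 94.1 to 98.6% of the UMIs of Ins1, Ins2, Gcg, Ppy and Pyy in the flox library. In the other it held 44.2% of those of Chga, 49.4% of Gcg, 50.9% of Ppy and 73.9 to 98.7% of the others. Below these cells the UMIs were spread thinly: 78 of 94 cells with Ins1 and 190 of 216 with Ins2 had a single one in the library labelled MCT1-KO.

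**Figure D2:**
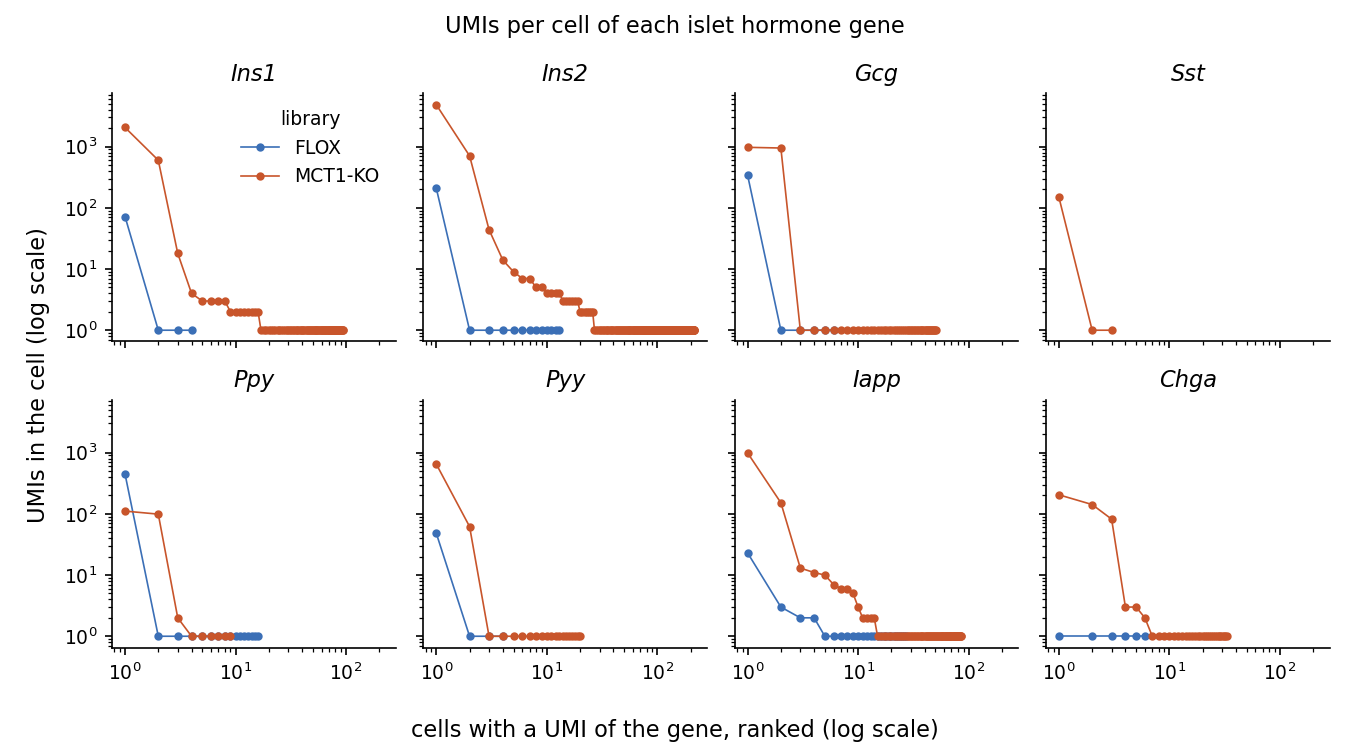
UMIs per cell (log axis) against the rank of the cell (log axis) for each gene, for all kept cells with a UMI of it, in the flox library (blue) and the library labelled MCT1-KO (orange). Curves with a high cell fall from 1 to 5 such cells to a tail of single UMIs. In the flox library Sst has no UMI and Chga has single UMIs only.

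Between the libraries, 7 of the 8 genes were at least 2-fold higher in the kept cells of the library labelled MCT1-KO, where 2.83% of the 15465 genes with at least 50 UMIs were, and 1 of 8, Ppy, was at least 2-fold higher in the flox library, where 6.41% were. The median log2 ratio over those genes was 0.0047. Ins1 had 75 flox UMIs and 2786 in the other library, a ratio of 27.9 (22.2 to 35.5). Ins2 had 220 and 5872, a ratio of 20.03 (17.5 to 23.0). Iapp had 53 and 1284, a ratio of 18.2 (13.8 to 24.4). Cell A by itself held 82.4% of the Ins2 UMIs of the library labelled MCT1-KO. Without the cell of most hormone UMIs in each library, which was cell A in both, Ins1, Ins2 and Iapp had ratios of 7.28, 3.53 and 4.15. Flox cell A held 0 UMIs of these genes, while flox cell B, with 72, 208 and 23, stayed in. For these genes the removal was thus not alike in the 2 libraries. At a minimum of 1000 UMIs, which among the hormone-rich cells drops flox cell B and cell F of the other library, they had ratios of 695, 398 and 34.3. Without possible doublets, a rule that among the hormone-rich cells drops cells A, B and C of the library labelled MCT1-KO and flox cell A, the ratios of Ins1 and Ins2 were 0.988 and 0.894 and that of Iapp 1.90.

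Gcg had 346 flox UMIs and 1974 in the other library, a ratio of 4.28 (3.82 to 4.81). Pyy had 51 and 729, a ratio of 10.7 (8.07 to 14.5), and Chga 6 and 464, a ratio of 58.0 (26.5 to 159). Without cell A of each library the ratio was 296 for Gcg and 182 for Pyy, since flox cell A held nearly all their flox UMIs. Without possible doublets it was 9.37 for Gcg, 24.6 for Pyy and 5.11 for Chga, and with ductal markers left out of that rule 422 for Gcg and 156 for Pyy. Ppy alone had fewer UMIs in the library labelled MCT1-KO, 218 against 463, and was 2.83 times higher in flox cells (2.40 to 3.34). The direction changed with the cells: without cell A of each library Ppy was 10.9 times higher in the library labelled MCT1-KO.

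With all hormone-rich cells left out, 73 flox UMIs and 581 in the other library remained over the 8 genes, a ratio of 5.98 (4.68 to 7.73) against 8.33 (7.85 to 8.84) with them. Ins1 then had 3 and 105 UMIs, a ratio of 26.3 (8.75 to 129.5), and Ins2 had 12 and 270, a ratio of 16.9 (9.52 to 33.1), so both stayed near their ratios with all kept cells. Iapp came closest to 1 among the genes higher in the library labelled MCT1-KO, with 30 and 99 UMIs and a ratio of 2.48 (1.63 to 3.86). Gcg had 5 and 49, Chga 5 and 30, Pyy 3 and 18, Sst 0 and 2, and Ppy 15 and 8. The interval of Ppy (0.147 to 1.01) then reached 1.

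The free RNA differed in the same direction. In empty barcodes the 8 genes had 157 flox UMIs and 533 in the other library, a ratio of 4.18 (3.49 to 5.03). Ins1 had 17 and 110, a ratio of 7.96 (4.75 to 14.2), Ins2 60 and 282, a ratio of 5.78 (4.36 to 7.78), and Iapp 40 and 70, a ratio of 2.15 (1.44 to 3.26). These 3 members had at least 50 UMIs over both libraries and all were at least 2-fold higher in the library labelled MCT1-KO, where 2.00% of 12925 genes were, and 0 of 3 were 2-fold higher in the flox library, where 3.35% were. Gcg had 17 and 29, Sst 2 and 6, Ppy 10 and 7, Pyy 3 and 9, and Chga 8 and 20.

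**Figure D3:**
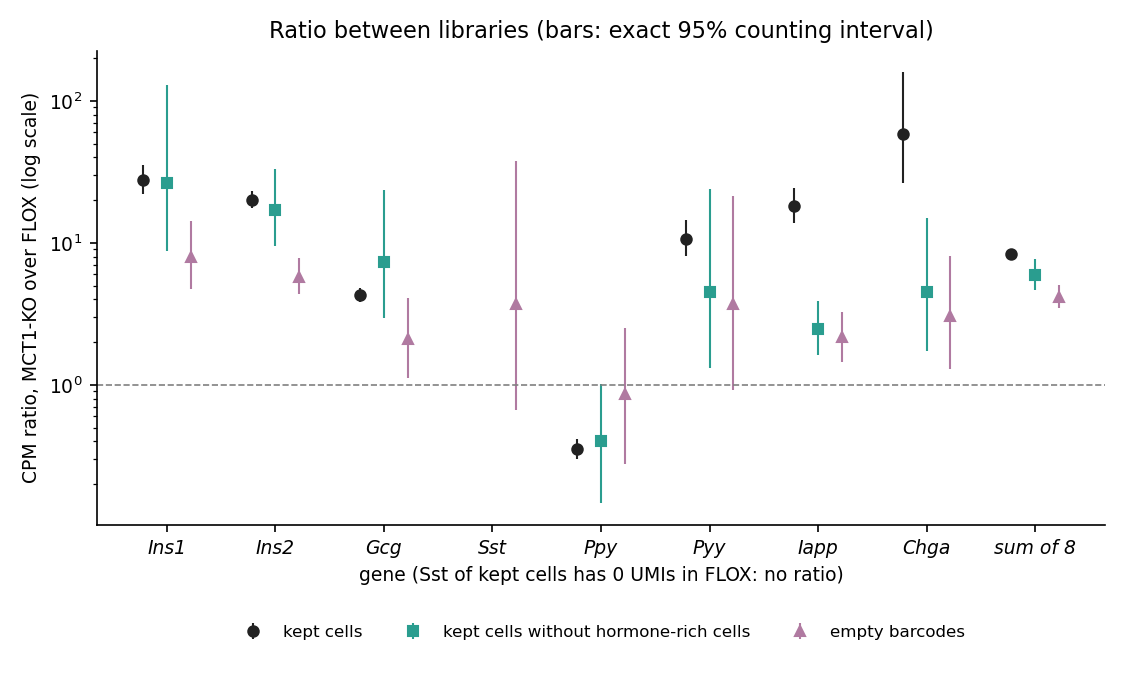
CPM ratio of the library labelled MCT1-KO over the flox library (log axis) for each gene and their sum, in kept cells (circles), kept cells without hormone-rich cells (squares) and empty barcodes (triangles), with exact 95% counting intervals from 1 library per genotype. The sum falls from 8.33 to 5.98 and 4.18, and Ppy is the only gene below 1 in kept cells.

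Outside the hormone-rich cells the measured Ins2 level of each named cell class was below that of the empty barcodes of its library. Small classes do not resolve this. Flox B-like, acinar-like, plasma-like, endothelial-like, dendritic-like and neutrophil-like cells had 0 UMIs. Their upper limits of 2.26 to 71.6 CPM lay above the 1.93 of the flox empties. So did that of flox PSC-like cells, 2.48 from 1 UMI. B-like, acinar-like, plasma-like and endothelial-like cells of the other library had 0, 1, 1 and 3 Ins2 UMIs. Their upper limits also lay above the level of its empties. In the library labelled MCT1-KO, empty barcodes (median 18 UMIs) had 11.2 CPM of Ins2 (9.89 to 12.5), ductal-like cells 2.83 (2.29 to 3.44), myeloid-like cells 3.91 (2.80 to 5.33) and PSC-like cells 6.17 (3.77 to 9.53). Ins1 had 4.35 CPM in these empties (3.57 to 5.24) and was above that among named classes in B-like cells, at 6.99 (0.846 to 25.2) from 2 UMIs. For Ins2 the unnamed clusters of shallow cells led by acinar genes were near the empties, at 13.4 CPM (9.20 to 19.0) for that led by Clps and 17.4 (10.3 to 27.6) for that led by Reg2, with intervals that include the 11.2 of the empties, and that led by Ccl17 had 9.85 from 1 UMI. In the flox library empty barcodes (median 20 UMIs) had 1.93 CPM (1.47 to 2.48), ductal-like cells 0.157 (0.0509 to 0.366) and myeloid-like cells 0.267 (0.0728 to 0.685). Single cells of these classes nevertheless held several insulin UMIs in the library labelled MCT1-KO, with 10 of 1259 in a PSC-like cell, 9 of 995 in a ductal-like cell and 5 of 4270 in a myeloid-like cell. The source of these UMIs was not tested. Gcg had 1.15 CPM in empty barcodes and 0.634 in ductal-like cells of the library labelled MCT1-KO (0.398 to 0.961), and 0.546 and 0.0941 in those of the flox library. On few UMIs it was above the empties in T/NK-like cells (2.10 CPM, 0.571 to 5.37, from 4 UMIs), B-like cells (3.49, 1 UMI), dendritic-like cells (1.65, 1 UMI) and an unnamed cluster led by Mcpt2 (5.05, 1.04 to 14.8, from 3 UMIs) of the library labelled MCT1-KO and in endothelial-like flox cells (1.33, 1 UMI).

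**Figure D4:**
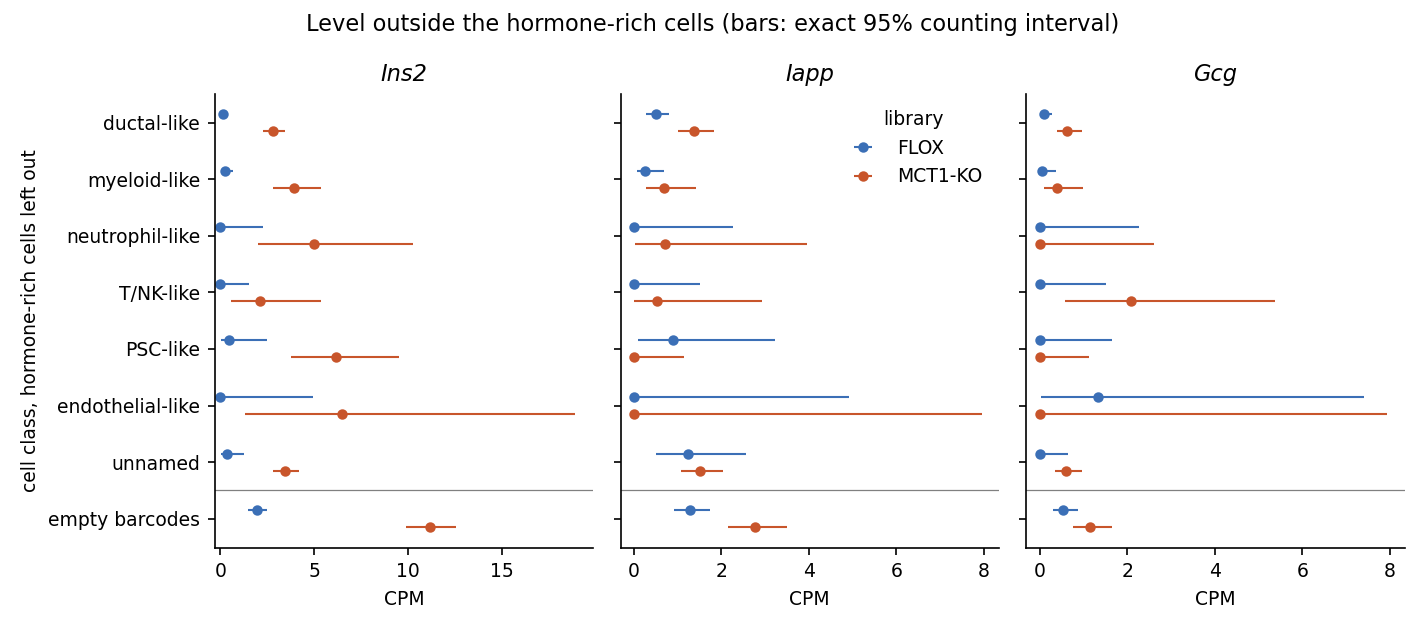
Level in CPM (horizontal axis) of Ins2, Iapp and Gcg in cell classes without the hormone-rich cells and in empty barcodes, for the flox library (blue) and the library labelled MCT1-KO (orange), with exact 95% Poisson intervals. Measured Ins2 levels of named classes lie below the empty barcodes of their own library. The intervals of small classes are wide, and for Ins2 those of flox neutrophil-like, PSC-like and endothelial-like cells reach above the level of the flox empties. That of endothelial-like cells of the library labelled MCT1-KO likewise reaches above its own empties.

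The proportion of Iapp to insulin varied within a library. In flox cell B, the only hormone-rich flox cell with insulin or Iapp, Iapp was 7.59% of the UMIs of Iapp and insulin together (4.87 to 11.2%), in empty flox barcodes 34.2% (25.7 to 43.5%) and in the other kept flox cells 66.7% (51.0 to 80.0%). In the library labelled MCT1-KO the share was 12.5% (11.9 to 13.2%) in hormone-rich cells, 15.2% (12.01 to 18.8%) in empty barcodes, where the interval overlaps the first, and 20.9% (17.3 to 24.8%) in the other kept cells. In ductal-like cells the share was 72.7% of 22 UMIs in the flox library (49.8 to 89.3%) and 24.9% in the other (18.9 to 31.6%). Most of the class lay in different clusters, with 1579 flox and 332 other cells in that led by Dnajb1 and 150 and 1637 in that led by Msln. The latter alone met a stricter naming rule, under which ductal-like flox cells had 0 UMIs of Iapp and of Ins2 among 665809, which allows up to 4.51 CPM. Iapp in ductal-like cells was nevertheless low, at 0.502 CPM (0.287 to 0.815) and 1.38 (1.02 to 1.84), below the 1.28 and 2.77 of the empties. Ins1 was 22.1% (13.4 to 33.0%) and 28.1% (23.7 to 32.8%) of insulin UMIs in the empty barcodes of the flox library and the other. In the hormone-rich cells it was 25.7% (20.7 to 31.3%) and 32.4% (31.4 to 33.4%), and the second value pools cells as unlike as A and B, whose Ins2 to Ins1 ratios were 2.35 and 1.18.

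Other genes of the endocrine program were counted from lists chosen with earlier results of these data known. Of 64 genes in 6 lists, 16 had at least 10 UMIs in the hormone-rich cells, and 14 of these were at least 2-fold higher there than in the other kept cells, where 13.5% of 1589 genes with that many UMIs were. The cells were chosen by the hormones, so this describes them. Granule genes led, with 10 of 13 past both limits. Pcsk1n, which encodes the convertase inhibitor proSAAS, had 191 UMIs in hormone-rich cells and 5 in all others, Resp18 180 and 10, Pcsk2, the convertase that cuts glucagon, 143 and 26, and Scg2, a secretogranin, 140 and 6. Scg5 had 74 and 835, and Scg3 69 and 8. Pam and Cpe, which finish peptide hormones and were named after their values were seen, had 65 and 55 UMIs there but 15234 and 28498 elsewhere, so that 0.425% and 0.193% of their UMIs lay in these cells.

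Of 12 transcription factors 1 passed both limits, Isl1 with 12 UMIs against 166 elsewhere. Of the 12, 8 had at least 1 UMI in the hormone-rich cells. Pdx1 and Mafa, factors of beta cells, had 0 there, while the other kept cells had 4253 UMIs of Pdx1. Nkx6-1, another such factor, had 4 UMIs in the hormone-rich cells against 7 elsewhere. Pax6 had 5 against 2 and Nkx2-2 had 4 against 5. Rfx6, an endocrine factor, had 5 UMIs, and none was elsewhere. Of 9 beta cell genes, Slc30a8, the zinc carrier of the insulin granule, had 18 UMIs against 1 elsewhere. Abcc8, a subunit of the channel that senses ATP, had 18 against 9. Of these 18, 14 were in cell B of the library labelled MCT1-KO, which held several hormones. Cell A of that library and flox cell B had 0 of Abcc8. Ucn3, a peptide of mature beta cells, had 3 and 0. Of 6 alpha and delta cell genes only Ttr passed, with 535 UMIs against 363.

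**Figure D5:**
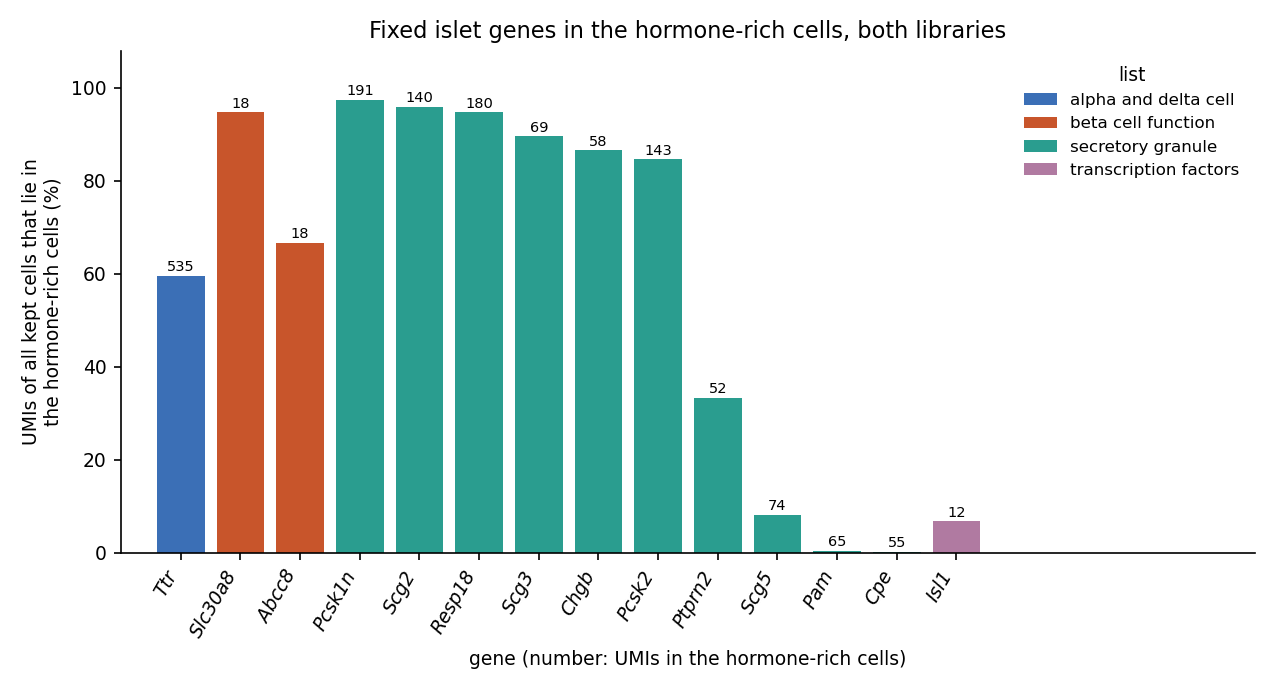
Share of the UMIs of all kept cells that lay in the 9 hormone-rich cells (vertical axis, %), for the 14 fixed islet genes with at least 10 UMIs there and a level at least 2-fold above the other kept cells, colored by list, with the UMIs above each bar. Pcsk1n, Scg2, Resp18 and Slc30a8 lie above 94%, and Cpe and Pam below 1%.

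By the same measure, the genes most like Ins2 over its 5 cells with at least 10 UMIs were Scg3, of whose 77 kept-cell UMIs 72.7% lay there, Scg2 (66.4%), Chgb (59.7%), Pcsk2 (56.8%) and Pcsk1n (52.6%), ranked among 254 genes. The same 5 genes in the same order were most like Iapp over its 6 cells, at 54.6 to 75.3% among 484 genes. Of the 5 cells of Ins2, 4 are among the 6 of Iapp, so these rankings share cells. Cells A and B of the library labelled MCT1-KO held 35 and 19 of the 56 Scg3 UMIs in the Ins2 cells. Cell C of that library, with 0 Ins2 UMIs, held 31 of Scg2, 11 of Chgb, 41 of Pcsk2 and 72 of Pcsk1n. Those genes were thus not particular to cells with Ins2.

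Receptors for these hormones were read mostly in other cells. The insulin receptor gene Insr had 1324 flox UMIs and 1474 in the library labelled MCT1-KO, and was highest in endothelial-like cells, at 237 CPM (203 to 274) and 295 (248 to 349), against 9.19 and 9.05 in empty barcodes. Gcgr, the glucagon receptor, had 0 and 1 UMIs. Of the somatostatin receptors Sstr1, Sstr4 and Sstr5 had none in either library, Sstr2 had 54 and 163 UMIs, and Sstr3 had 0 and 2, both in hormone-rich cells. Npy1r, a receptor of peptide YY, had 54 and 52 UMIs and was at 4.88 CPM in PSC-like flox cells (2.43 to 8.73) and at 2.78 in those of the other library (1.27 to 5.27), and Npy4r, the receptor of pancreatic polypeptide, had 3 and 4. Calcr, the core of the amylin receptor, had 0 and 4 UMIs, while its partner Ramp1 had 4730 and 8203. Of other peptide hormone genes, Ghrl, Cck, Gast, Gip, Nts and Npy had 0 UMIs in the hormone-rich cells.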

How the data were processed

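Unsorted live tumor cells were sequenced as 1 library per genotype. After trimming with Fastp, the authors used SeekOneTools to count UMIs, and the deposited values are these raw counts, with lists of barcodes and of mouse genes. The submitters' notes name Seurat 4.0.0 and the human build GRCh38, so the mouse build behind the counts is not known, and the methods and labels name different kits. Positions were taken by gene identifier. Groups came from the genotype label. The members and the gene lists were chosen with earlier results of these data known.

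Members were summed per library in kept cells and in empty barcodes. CPM intervals were exact Poisson, ratios had exact conditional intervals and shares exact Clopper-Pearson intervals, all at 95%. A count of 0 was set against a floor of 3 UMIs. Cells were clustered on 2000 variable genes without the members, with 20 components, 20 neighbors and Leiden resolution 0.8 (26 clusters), and named by fixed markers. The thresholds of naming were set after the clusters had been seen, and 24.0% of flox cells and 37.4% of the others stayed unnamed. Doublets were not removed. In an alternative, 1083 and 783 cells with at least 50% of the markers of several classes were left out. From each islet list, genes with at least 10 UMIs in hormone-rich cells were named, up to 6 by UMIs, and further ones after their values were seen. Some genes are not reported here. No p-value was computed. The ratio interval was tested on simulated counts drawn as independent UMIs. Most hormone UMIs lay together in a few cells, so that simulation cannot show how the interval performs for these genes. Scripts used scipy 1.17.1, leidenalg 0.10.2, scikit-learn 1.9.0, matplotlib 3.10.9, numpy 2.4.6 and pandas 2.3.3 in Python 3.11.15. The total UMIs were 177334432 and 151118092.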

Additional observations from a re-analysis of the deposited data

How the results depend on the processing

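Several values changed when a few cells were left out. The summed ratio in kept cells, 8.33, was 11.1 with a minimum of 1000 UMIs, 11.3 with no upper limit on genes, 5.98 without hormone-rich cells and 10.9 without the top cell of each library. It was 1.73 without possible doublets, a rule that of the hormone-rich cells removed cells A, B and C of the library labelled MCT1-KO and flox cell A. With ductal markers left out of that rule, an alternative chosen after seeing the data, only flox cell A of these was removed and the ratio was 23.9. Ins1 and Ins2 turned to 0.988 and 0.894 without possible doublets, with intervals that hold 1 (0.733 to 1.34 and 0.748 to 1.07). Ppy turned to 10.9 without the top cell of each library, to 6.21 without possible doublets and to 11.6 with ductal markers left out of the rule. In empty barcodes the sum, 4.18, was 2.79 at 20 to 50 UMIs and 1.96 at 1 to 9 UMIs (0.813 to 5.40). The number of flox hormone-rich cells, 2, was 1 with a minimum of 1000 UMIs and 1 under either doublet rule, and that of the other library, 7, was 15 at 5 or more UMIs and 4 without possible doublets. Of the other alternatives, mostly for single genes, 70 values stayed within the interval or within 1.5 times the count and 35 moved beyond that. Ratios among these 35 kept their direction. Others were levels and cell counts. Iapp in ductal-like flox cells went from 0.502 CPM to 0 under the stricter naming. The number of flox cells holding most Iapp UMIs went from 3 to 22 at 90%. No paired analysis was possible because each genotype has 1 library and no test was made. Depth limits the rest: outside the hormone-rich cells 7 of the 8 flox genes had at most 15 UMIs.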

Other observations

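Below 500 UMIs, 5 more barcodes had at least 10 UMIs of a hormone gene. Flox barcode C had 134 UMIs, of which 33 were Ins1, 69 Ins2 and 6 Iapp, so that hormones made up 80.6% of it (72.9 to 86.9%). Flox barcode D had 12, 37 and 2 of the same genes among 178 UMIs. In the library labelled MCT1-KO, barcodes H, I and J had 24, 19 and 12 UMIs of Ins2 among 114, 128 and 110. All 5 held insulin and Iapp and none of the other hormones. Over 5000 genes, flox barcode E had 18 Gcg UMIs among 25273 and no other member.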
